A study of Mus musculus with 16 samples.

Results

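The transcripts described here encode 9 liver enzymes that reduce quinones and carbonyls, open epoxides or oxidise aldehydes: the quinone reductases Nqo1 and Nqo2, the carbonyl reductases Cbr1 and Cbr3, prostaglandin reductase Ptgr1, the epoxide hydrolases Ephx1 and Ephx2, and the aldehyde oxidases Aox1 and Aox3. They were chosen by symbol, as a family of enzymes, from the 56832 genes of the expression table. This choice, and that of the related gene lists below, was made with earlier results of these data known. The counts set against all genes are therefore descriptions. All 9 transcripts were among the 15128 genes with a mean value of at least 3 that were tested.

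Quinones, unsaturated carbonyls and epoxides are reactive electrophiles that glutathione would otherwise take up by conjugation, and these enzymes turn them into less reactive hydroquinones, alcohols, diols or acids. Several of the genes, with Nqo1 as the textbook case, are targets of NRF2, the transcription factor (gene Nfe2l2) that KEAP1 marks for degradation until electrophiles or oxidants modify KEAP1. NRF2 binds antioxidant response elements together with a small MAF protein. Hepatocytes carry most of this enzyme activity in the liver.

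RNA came from 16 livers of adult mice in 4 groups of 4. WT mice had unmodified Gclc (Gclc wt/wt). Gclc KO mice had floxed alleles of Gclc (Gclc f/f), whose product carries out the committed step of glutathione synthesis, Nrf2 KO mice had floxed Nrf2 (Nrf2 f/f), and DKO mice had both. All 4 groups, WT included, received AAV-TBG-Cre through the tail vein and were killed 3 weeks later. The TBG promoter drives Cre in hepatocytes, so macrophages, endothelium and other cell types retain Gclc and Nrf2. The labels give no age or sex.

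The deposited values are rlog values, a log2 scale from DESeq2 in which low genes are shrunk towards their mean, so every value below is on a log2 scale, levels are compared between groups and never between genes, and read depth is unknown. Differences were tested with limma over all 16 livers, and a gene is called where the Benjamini-Hochberg adjusted p over the 15128 tested genes is under 0.05. Over the whole gene, the values of the targeted genes did not follow every label. Gclc differed from WT by 0.21 in the livers labelled Gclc KO (adjusted p = 0.535) and was called lower in DKO (-1.75, adjusted p = 0.000972). Nfe2l2 was above WT in all 4 livers labelled Nrf2 KO, by 0.62, which was not called (adjusted p = 0.567), and was called higher in DKO (1.20, adjusted p = 0.00415). By quantitative PCR the paper reported lower Gclc mRNA after liver deletion of Gclc. It likewise reported lower Nrf2 mRNA after deletion of Nrf2, alone or with Gclc. Whether the floxed part of each gene was lost in these 16 livers was not tested here. The group names below are those of the labels, and every direction drawn from them rests on the labels. In every genotype replicates 1 and 2 had high Xist (14.10 to 14.65) and low Ddx3y (5.07 to 5.37), and replicates 3 and 4 had low Xist (7.95 to 8.91) and high Ddx3y (10.35 to 10.80). Xist is the RNA of the inactive X chromosome and Ddx3y lies on the Y chromosome, and the 2 sets of livers are given separately where they differ. All 6 hepatocyte markers were found in every library, with a summed level between 20.11 and 21.81.

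The start regions of 4 of these genes are shown because Nqo1 and Cbr3 moved together while the neighbours Aox1 and Aox3 moved apart. Each is the 250 bases before the start of the RefSeq gene in the build GRCm38.p6, read 5′ to 3′ on the gene's strand, with matches to TGANTCA (the AP-1 core, which overlaps the antioxidant response element), TATAAA (the TATA box) and GGGCGG (the GC box) in capitals on either strand. Nqo1 is at chr8:107403206-107403455 (minus strand), Cbr3 at chr16:93682969-93683218 (plus strand), Aox1 at chr1:58029719-58029968 (plus strand) and Aox3 at chr1:58112886-58113135 (plus strand).
Nqo1: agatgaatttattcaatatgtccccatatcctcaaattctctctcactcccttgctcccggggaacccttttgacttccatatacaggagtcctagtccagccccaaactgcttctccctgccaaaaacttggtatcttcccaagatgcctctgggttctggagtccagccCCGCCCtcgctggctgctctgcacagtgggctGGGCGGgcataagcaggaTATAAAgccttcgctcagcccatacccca
Cbr3: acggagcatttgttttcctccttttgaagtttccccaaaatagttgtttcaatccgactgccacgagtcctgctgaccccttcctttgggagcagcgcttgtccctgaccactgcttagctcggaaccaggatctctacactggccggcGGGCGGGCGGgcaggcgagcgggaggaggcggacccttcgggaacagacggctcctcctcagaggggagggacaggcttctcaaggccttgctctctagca
Aox1: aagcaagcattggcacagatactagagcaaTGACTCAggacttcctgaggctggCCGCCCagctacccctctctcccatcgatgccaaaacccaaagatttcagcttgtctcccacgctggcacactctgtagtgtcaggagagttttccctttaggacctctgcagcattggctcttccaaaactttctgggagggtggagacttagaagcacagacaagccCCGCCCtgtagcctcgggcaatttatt
Aox3: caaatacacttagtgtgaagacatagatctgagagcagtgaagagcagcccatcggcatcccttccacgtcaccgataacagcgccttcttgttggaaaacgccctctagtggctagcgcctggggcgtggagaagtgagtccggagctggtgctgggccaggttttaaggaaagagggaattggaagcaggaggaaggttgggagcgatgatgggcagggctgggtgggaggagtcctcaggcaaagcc
In the Nqo1 region the TATA box begins 29 bases before the start and 2 GC boxes lie at 79 and 47 bases. The Aox1 region holds an AP-1 core at 220 bases and GC boxes at 196 and 27 bases, and none of these motifs is written in the Aox3 region. The region of Cbr1, which rose in Gclc KO, holds none of them either. GC boxes are also found before Nqo2 and Ptgr1, which were not called in Gclc KO. TATAAA and GGGCGG were added to the search after the sequences had been seen. Whether these motifs bear on the changes was not tested. The antioxidant response element core TGACNNNGC was searched on both strands in windows of 300 bases, 250 before and 50 after the start, and was in 0 of 9 windows of these genes (8 genes matched, Nqo2 with 2 starts, Ephx2 not matched) against 12.4% of 32851 RefSeq windows. TGANTCA was in 2 of the 9 windows and in 7.81% of all, TATAAA in 2 of 9 and 13.6%, and GGGCGG in 6 of 9 and 35.7%. A match is only a run of letters, and elements outside these windows were not searched.

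On chromosome 16 Cbr1 and Cbr3, and on chromosome 1 Aox1 and Aox3, are neighbours with 0 protein-coding genes between them. Paralogues can share reads, and how the authors' counting treated reads that match several genes is not given in the sources used here. Of the 50-base stretches of the longest reference transcript (GENCODE, GRCm38), 0.0892% for Cbr3 and 2.34% for Cbr1 also occur in another gene. The share was 1.89% for Ephx1, 0.58% for Aox1 and 0 for Nqo1, Nqo2, Ptgr1, Ephx2 and Aox3.

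In Gclc KO most of the family differed from WT. Of the 9 transcripts 6 were called against WT, a share to be read against the 23% of all tested genes called in this comparison. Nqo1, Cbr1, Cbr3, Ephx1 and Aox1 rose (10.6% of genes were called higher) and Aox3 fell (12.4% were called lower). The median difference was 1.59 over the 9 and 0.00 over all tested genes. In DKO 0 of 9 were called against WT by limma, where 9.96% of genes were called, and 2 of 9 had an unadjusted p under 0.05. Against Gclc KO, 5 of 9 were lower in DKO, with 4.8% of genes called lower. The plot of all values by liver shows the Gclc KO points of Nqo1, Cbr1, Cbr3, Ephx1 and Aox1 well above the other groups.

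**Figure D1:**
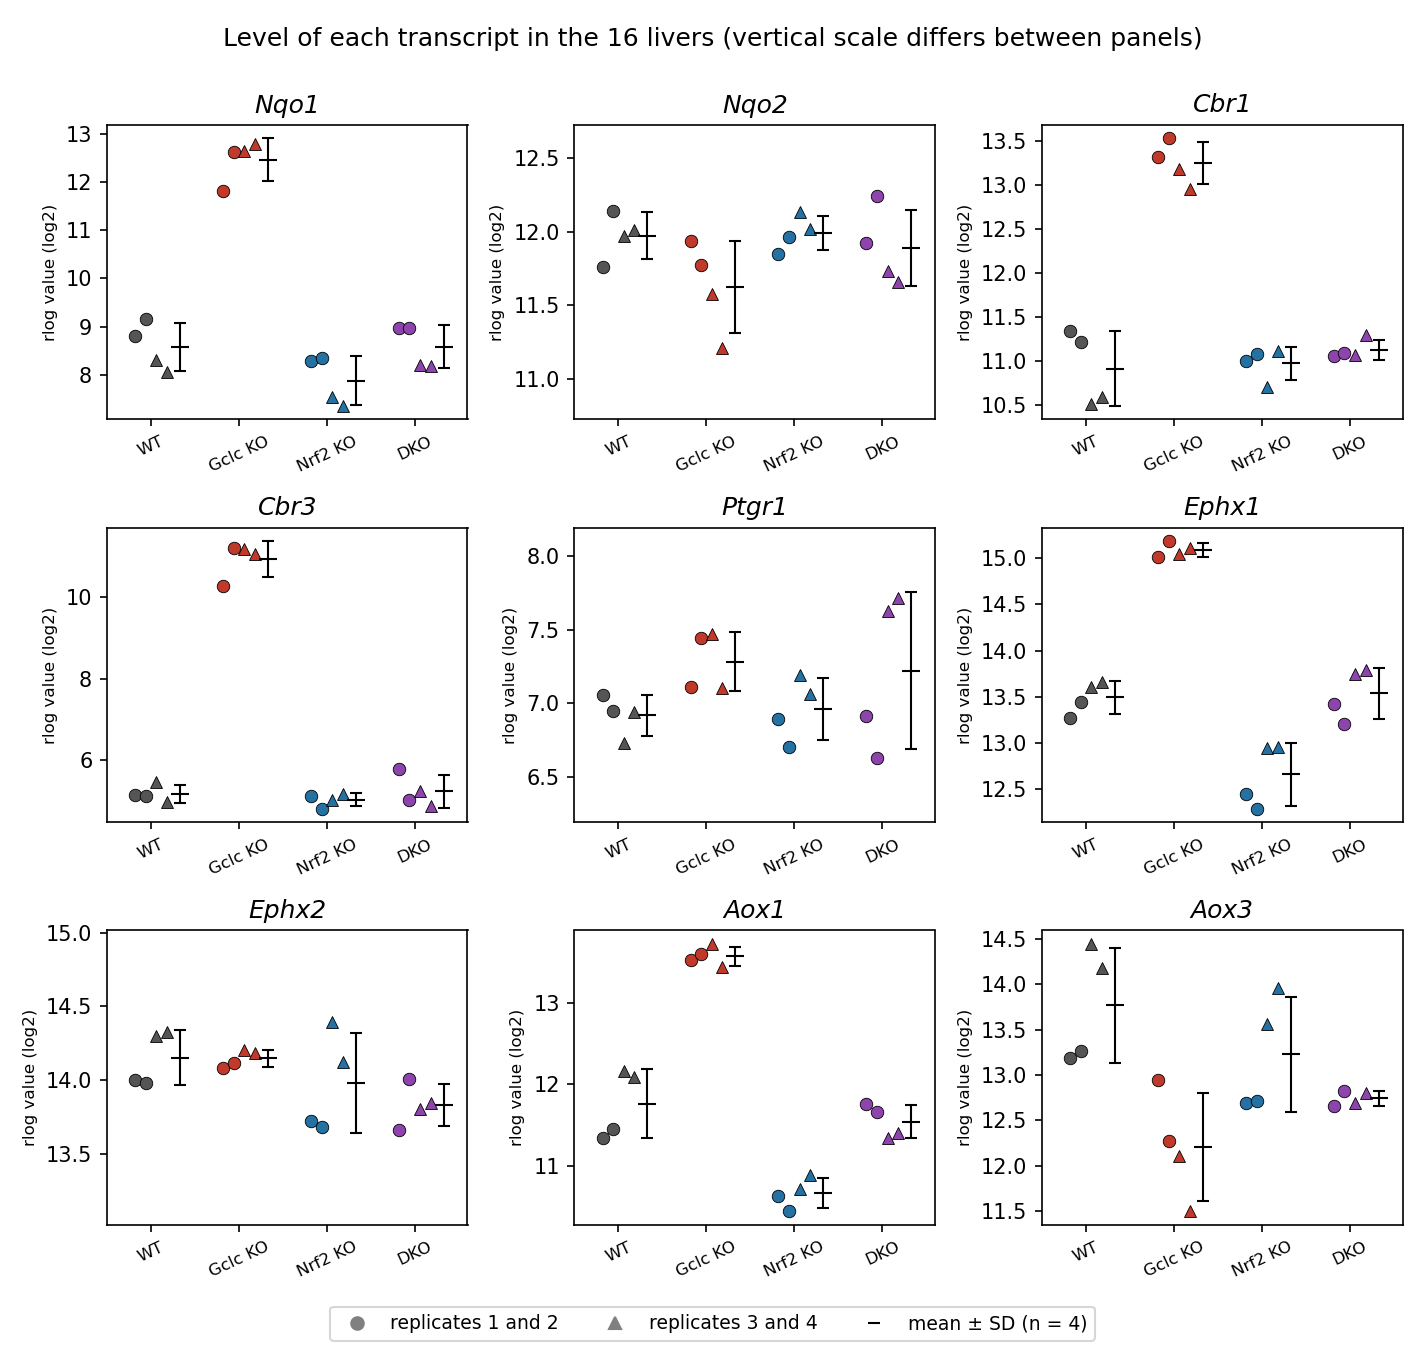
Level (rlog, log2 scale, vertical axis) of each of the 9 transcripts in the 16 livers by genotype, with circles for replicates 1 and 2, triangles for replicates 3 and 4, and the mean ± SD of 4 livers beside them. In Gclc KO the 4 livers lie above all 12 others for Nqo1, Cbr1, Cbr3, Ephx1 and Aox1, and vertical scales differ between panels.

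NQO1 reduces quinones to hydroquinones by 2 electrons at once, with NADPH or NADH. The 4 WT livers had Nqo1 levels of 8.81, 9.16, 8.31 and 8.05 and the 4 Gclc KO livers 11.82, 12.61, 12.64 and 12.79. Nrf2 KO livers had 8.28, 8.35, 7.53 and 7.35, and DKO livers 8.97, 8.98, 8.21 and 8.18. The Gclc KO livers thus stood clear of the other groups, DKO lay within the WT range, and Nrf2 KO overlapped with WT at its lower end. Nqo1 was 14.8-fold higher in Gclc KO than in WT (log2 difference 3.88, 95% interval 3.23 to 4.54, adjusted p = 1.5e-06) and 14.8-fold lower in DKO than in Gclc KO (adjusted p = 1.5e-06). Between DKO and WT the difference was 0.00 with an interval from -0.65 to 0.65. Nrf2 KO differed from WT by -0.70, which was not called (adjusted p = 0.72), although both sets of livers gave a difference of the same sign (-0.67 and -0.74). Within each set, 2 livers against 2, the Nrf2 KO livers lay below the WT livers.

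NQO2 resembles NQO1 but uses dihydronicotinamide riboside in place of NADPH. Its levels were 11.76, 12.14, 11.97 and 12.01 in WT and 11.94, 11.78, 11.58 and 11.21 in Gclc KO, and the groups overlapped. The difference of -0.35 was not called (adjusted p = 0.105), with an interval from -0.67 to -0.03 that lies on the other side of 0 from the Nqo1 rise. It was called without Gclc KO replicate 1 (-0.45, adjusted p = 0.038), with array weights (-0.33, adjusted p = 0.0363) and with replicates 3 and 4 alone (-0.60, adjusted p = 0.0089), while replicates 1 and 2 differed by -0.09. The difference between these sets of livers, -0.51, was not called (adjusted p = 0.279). In Nrf2 KO and DKO Nqo2 was between 11.66 and 12.24 and differed from WT by 0.02 and -0.08.

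CBR1 reduces carbonyl groups of quinones, prostaglandins and drugs with NADPH. Cbr1 was at 11.34, 11.22, 10.51 and 10.59 in WT and at 13.32, 13.53, 13.18 and 12.96 in Gclc KO. It was at 11.00, 11.08, 10.71 and 11.11 in Nrf2 KO and at 11.06, 11.09, 11.07 and 11.30 in DKO. The Gclc KO livers did not overlap with any other group, and the remaining 3 groups overlapped. Cbr1 rose 5.05-fold in Gclc KO (log2 difference 2.34, interval 1.96 to 2.71, adjusted p = 8.87e-07) and was 4.35-fold lower in DKO than in Gclc KO (adjusted p = 2.35e-06).

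CBR3 is a close relative of CBR1 with activity on fewer substrates. Cbr3 was low in WT, at 5.13, 5.11, 5.47 and 4.96, and rose in Gclc KO to 10.27, 11.21, 11.19 and 11.06. Nrf2 KO livers had 5.12, 4.80, 5.02 and 5.17, and DKO livers 5.78, 5.01, 5.23 and 4.88. This was the widest gap among the 9 transcripts: the lowest Gclc KO liver was at 10.27 and the highest of the other 12 at 5.78. The fold was 54.3 (log2 difference 5.76, interval 5.30 to 6.23, adjusted p = 1.12e-09), and DKO was 52.1-fold below Gclc KO (adjusted p = 6.52e-10). DKO and WT differed by 0.06, with an interval from -0.41 to 0.52.

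PTGR1 reduces the double bond of unsaturated aldehydes and ketones, among them oxidised prostaglandins. Ptgr1 was at 7.06, 6.95, 6.73 and 6.94 in WT and at 7.11, 7.44, 7.47 and 7.10 in Gclc KO. All 4 Gclc KO livers were above all WT livers, but the difference was small, 0.36, and not called (interval -0.08 to 0.81, adjusted p = 0.217), except with array weights (0.50, adjusted p = 0.0302). Nrf2 KO livers lay between 6.70 and 7.19. In DKO the livers separated by set, with 6.91 and 6.63 in replicates 1 and 2 and 7.63 and 7.72 in replicates 3 and 4.

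EPHX1, the microsomal epoxide hydrolase, opens epoxides of drugs and aromatic hydrocarbons to diols. Ephx1 was at 13.27, 13.44, 13.60 and 13.66 in WT, at 15.01, 15.19, 15.04 and 15.11 in Gclc KO, and at 13.42, 13.20, 13.75 and 13.79 in DKO. Nrf2 KO had 12.45, 12.29, 12.94 and 12.96. The order from high to low was therefore Gclc KO, then WT and DKO, whose livers overlapped, then Nrf2 KO, whose 4 livers were below those of every other group. Ephx1 was 3.02-fold higher in Gclc KO than in WT (log2 difference 1.59, interval 1.25 to 1.94, adjusted p = 2.2e-05) and 2.93-fold lower in DKO than in Gclc KO (adjusted p = 2.92e-05). The difference of -0.84 in Nrf2 KO missed the threshold (adjusted p = 0.068), but DKO was 1.84-fold above Nrf2 KO (adjusted p = 0.0084). The Nrf2 KO difference was called without Nrf2 KO replicate 3 (-0.93, adjusted p = 0.0439), with Xist as a covariate (-0.83, adjusted p = 0.00338), with array weights (-0.93, adjusted p = 0.0041) and with replicates 3 and 4 alone (-0.68, adjusted p = 0.0144). The call of DKO above Nrf2 KO was lost when these 2 groups were fitted alone (adjusted p = 0.0687) and with replicates 1 and 2 alone (0.94, adjusted p = 0.0746).

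EPHX2, the soluble hydrolase, acts on epoxides of fatty acids that cytochromes P450 make. Ephx2 was at 14.00, 13.98, 14.30 and 14.33 in WT and at 14.08, 14.11, 14.20 and 14.19 in Gclc KO, a difference of -0.00 with an interval from -0.31 to 0.30. Under quantile normalization the difference was 0.29 (adjusted p = 0.173). It was at 13.72, 13.68, 14.39 and 14.12 in Nrf2 KO and at 13.66, 14.01, 13.80 and 13.84 in DKO, and in neither was it called against WT (-0.17 and -0.32). In DKO it was called lower with array weights (-0.44, adjusted p = 0.0378) and with replicates 3 and 4 alone (-0.49, adjusted p = 0.0158). Its DKO difference from WT was not called as unlike between the sets of livers (-0.33, adjusted p = 0.25). The intervals of the Gclc KO differences of Ephx1 (1.25 to 1.94) and Ephx2 do not overlap.

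AOX1 and AOX3 are molybdenum and flavin enzymes that oxidise aldehydes and nitrogen heterocycles. Aox1 was at 11.34, 11.45, 12.17 and 12.09 in WT and at 13.53, 13.60, 13.72 and 13.44 in Gclc KO. It was at 10.63, 10.44, 10.71 and 10.88 in Nrf2 KO and at 11.76, 11.66, 11.34 and 11.40 in DKO. Gclc KO stood above all other livers, Nrf2 KO below all others, and DKO overlapped with WT. Aox1 rose 3.50-fold in Gclc KO (log2 difference 1.81, interval 1.45 to 2.17, adjusted p = 1.09e-05) and was 4.09-fold lower in DKO than in Gclc KO (adjusted p = 2.77e-06). It was also the transcript of the family that was called in Nrf2 KO against WT, 2.14-fold lower (log2 difference -1.10, interval -1.46 to -0.74, adjusted p = 0.0145), where 0.139% of all genes were called. That call was lost without Nrf2 KO replicate 1 (-1.09, adjusted p = 0.0586), Nrf2 KO replicate 2 (-1.02, adjusted p = 0.0613), WT replicate 3 (-0.96, adjusted p = 0.0611) or WT replicate 4 (-0.99, adjusted p = 0.0593), with replicates 1 and 2 alone (-0.87, adjusted p = 0.0561) and with these 2 groups fitted alone (adjusted p = 0.153). DKO was 1.83-fold above Nrf2 KO (adjusted p = 0.0123).

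Aox3, the neighbour of Aox1, went the other way. It was at 13.19, 13.26, 14.44 and 14.17 in WT and at 12.95, 12.27, 12.10 and 11.50 in Gclc KO, with all 4 Gclc KO livers below WT. Nrf2 KO livers had 12.69, 12.71, 13.56 and 13.96, and DKO livers 12.66, 12.83, 12.69 and 12.80, so that all 4 DKO livers were also below WT, and they lay within the Gclc KO range. Aox3 was 2.95-fold lower in Gclc KO than in WT (log2 difference -1.56, interval -2.30 to -0.82, adjusted p = 0.00641). The DKO difference from WT was -1.02 (interval -1.76 to -0.28) and missed the threshold (adjusted p = 0.0715). It was called with Xist as a covariate (-1.03, adjusted p = 0.045), with array weights (-1.38, adjusted p = 0.015) or with replicates 3 and 4 alone (-1.56, adjusted p = 0.00252). In replicates 1 and 2 it was -0.48, and the difference between sets, -1.08, was not called (adjusted p = 0.0758). Between DKO and Gclc KO Aox3 was not called over all livers (0.54, interval -0.20 to 1.28, adjusted p = 0.378), but with replicates 3 and 4 alone it was called higher in DKO (0.95, adjusted p = 0.0233), against 0.13 in replicates 1 and 2. That difference between sets, 0.81, was not called (adjusted p = 0.354).

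**Figure D2:**
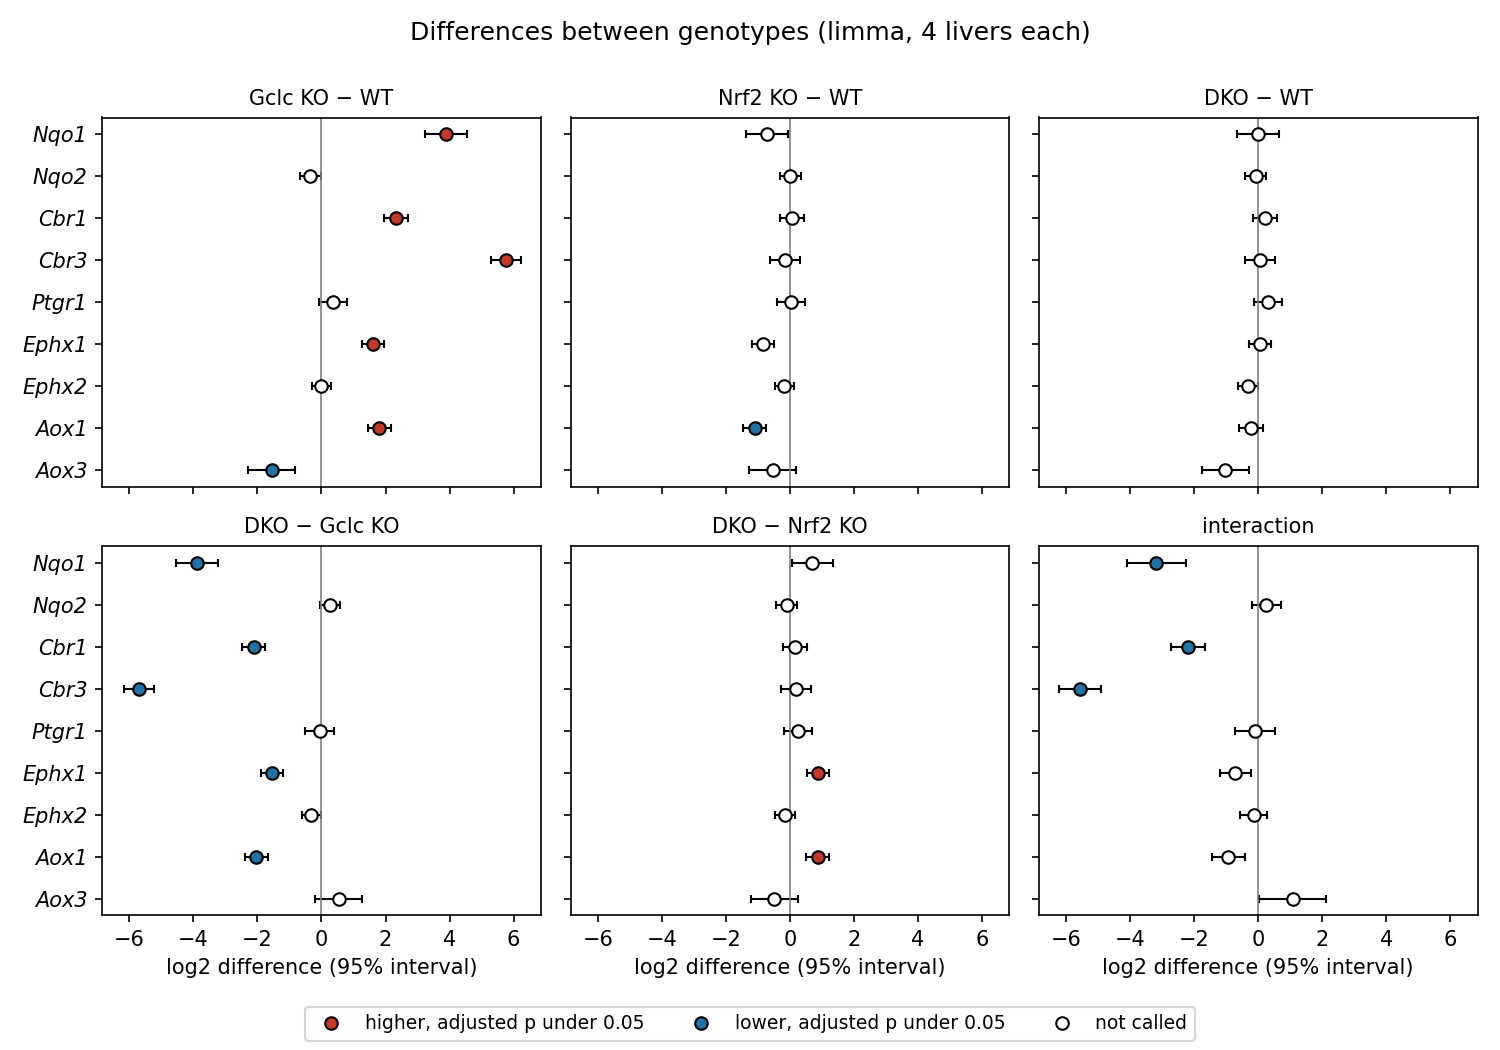
Log2 differences (points, horizontal axis) with 95% intervals for the 9 transcripts in 5 comparisons of genotypes and in the interaction, 4 livers each, filled red or blue where limma called them higher or lower. Nqo1, Cbr1 and Cbr3 have the interaction called, at -3.18, -2.18 and -5.56, and DKO against WT has no filled point.

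The interaction asks whether Gclc deletion moved a gene differently in mice with and without Nrf2, and is the difference DKO minus Nrf2 KO less Gclc KO minus WT. It was called for 3 of 9, all lower, where 0.687% of all genes were called: Nqo1 (-3.18, adjusted p = 0.00256), Cbr1 (-2.18, adjusted p = 0.00042) and Cbr3 (-5.56, adjusted p = 2.69e-07). With replicates 1 and 2 alone the Nqo1 value was -2.57 (adjusted p = 0.0849). For Aox1 (-0.93, adjusted p = 0.0985) and Ephx1 (-0.71, adjusted p = 0.184) it was not called. The Ephx1 interaction was called with Xist as a covariate (-0.72, adjusted p = 0.0349) and with replicates 3 and 4 alone (-0.63, adjusted p = 0.0318), and that of Aox1 with replicates 3 and 4 alone (-0.88, adjusted p = 0.0262). Aox1 and Ephx1 were also the 2 transcripts that were called higher in DKO than in Nrf2 KO, a comparison in which 2.65% of genes were called higher. Nqo1 was 0.70 higher in DKO than in Nrf2 KO (interval 0.05 to 1.36), which was not called (adjusted p = 0.172). Its differences were 0.66 in replicates 1 and 2 and 0.75 in replicates 3 and 4, and with the latter alone it was called (adjusted p = 0.00665). The interaction of Aox3 had the opposite sign, 1.08 (adjusted p = 0.323), and was called with replicates 3 and 4 alone (1.497, adjusted p = 0.0394). A difference of the interaction between the sets was called for 0 of 9, where 0.0132% of all genes were called.

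The count of transcripts whose groups of 4 did not overlap gives the same comparisons without a model. Of the 9 transcripts, 6 lay wholly above WT in Gclc KO and 1 wholly below, against 13.3% of all genes in each direction. In Nrf2 KO 2 of 9 (Ephx1 and Aox1) lay wholly below WT, against 2.7% of genes. Nqo1 and Aox3 overlapped with WT over the 4 livers but lay below WT within each set of 2. The share of all genes that did so was not computed. In DKO only Aox3 lay wholly below WT, against 9.43% of genes, and 6 of 9 lay wholly below Gclc KO, against 7.03%. Between DKO and Nrf2 KO 2 of 9 lay wholly above, against 6.91%. Of the 6 below Gclc KO, 1 was Ephx2, with a difference of -0.32 that was not called (adjusted p = 0.192).

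Genotype was not the only difference among the livers. Between the 2 sets, with genotype in the fit, Ephx1 was called lower in replicates 1 and 2 (log2 difference -0.32, adjusted p = 0.0143), 1 of 9 against 15% of all genes. Nqo1 was higher in replicates 1 and 2 in WT, Nrf2 KO and DKO, with means of 8.98 against 8.18, 8.31 against 7.44 and 8.97 against 8.19, but not in Gclc KO (12.21 against 12.72). For Nqo1 the difference between sets was called without Gclc KO replicate 1 (0.65, adjusted p = 0.00402) or replicate 4 (0.59, adjusted p = 0.0384), for Cbr1 without DKO replicate 4 (0.33, adjusted p = 0.0401) and for Ephx2 without DKO replicate 2 (-0.29, adjusted p = 0.0181).

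The effect of genotype itself differed between the sets for the aldehyde oxidases. In Gclc KO against WT, Aox3 changed by -0.62 in replicates 1 and 2 and by -2.51 in replicates 3 and 4, a difference of -1.89 (adjusted p = 0.0235), and Aox1 rose by 2.16 and by 1.45, a difference of -0.71 (adjusted p = 0.0462). These were 2 of 9 transcripts, where 0.899% of genes were called. Aox3 stood at 13.23 in WT replicates 1 and 2 and at 14.31 in replicates 3 and 4, and at 12.61 and 11.80 in Gclc KO, so that the livers with the higher level in WT were those with the lower level in Gclc KO. With replicates 1 and 2 alone the fall of Aox3 was not called (-0.62, adjusted p = 0.115). Nqo1 rose by 3.23 and by 4.54, a difference of 1.30 that was not called (adjusted p = 0.0674) except without Gclc KO replicate 2 (1.70, adjusted p = 0.00448).

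In DKO against WT the difference between sets was called for 3 of 9, each with opposite signs in the sets, and for 4.34% of all genes. Aox1 differed from WT by 0.31 in replicates 1 and 2 and by -0.76 in replicates 3 and 4 (difference -1.07, adjusted p = 0.011). Cbr1 differed by -0.21 and 0.64 (difference 0.84, adjusted p = 0.0319) and Ptgr1 by -0.23 and 0.84 (difference 1.07, adjusted p = 0.0317). In these the values over all 4 livers, -0.22, 0.22 and 0.30, average over unlike sets.

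Each set has 2 livers per genotype, and most of these calls ended when 1 liver was left out. Leaving out any WT liver or Gclc KO replicate 1, 2 or 4 ended the Aox1 call between sets in Gclc KO (-0.76 to -0.57, adjusted p 0.0678 to 0.18), and leaving out any WT liver or Gclc KO replicate 1 or 4 ended that of Aox3 (-2.03 to -1.55, adjusted p 0.058 to 0.0922). In DKO the Cbr1 call ended without any 1 DKO liver or WT replicate 1, 3 or 4 (0.73 to 0.96, adjusted p 0.0551 to 0.116), that of Ptgr1 without DKO replicate 2, 3 or 4 or WT replicate 1, 3 or 4 (0.93 to 1.18, adjusted p 0.0724 to 0.11), and that of Aox1 without WT replicate 1 (-1.02, adjusted p = 0.0549).

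**Figure D3:**
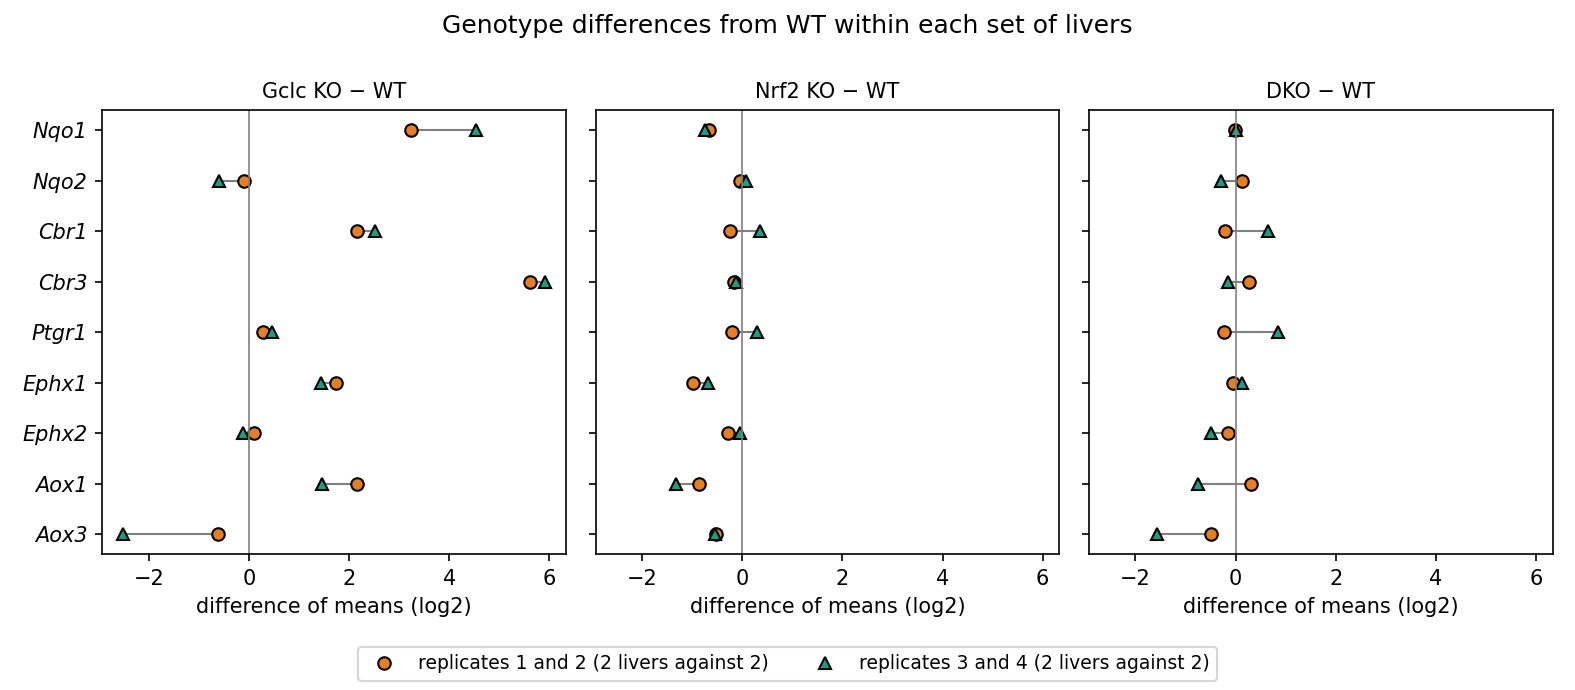
Differences of mean rlog value (log2, horizontal axis) from WT for the 9 transcripts in Gclc KO, Nrf2 KO and DKO, with circles for replicates 1 and 2 and triangles for replicates 3 and 4, each 2 livers against 2. The sets lie far apart for Aox3 in Gclc KO (-0.62 and -2.51) and on opposite sides of 0 for Aox1, Cbr1 and Ptgr1 in DKO.

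The cell makeup of the samples bears on all of these values, since in whole liver fewer cells of a type and less RNA per cell cannot be told apart. In Gclc KO against WT 2 of 6 hepatocyte markers were lower (Tat and Cps1, where 12.4% of all genes were) and the summed level ran from 20.11 to 21.15 against 21.43 to 21.70, with none of the 6 at 0. Of the 6 Kupffer cell and macrophage markers 3 were higher (Clec4f, Adgre1 and Cd68, where 10.6% of all genes were), with summed levels from 13.04 to 13.48 against 12.33 to 12.75. In DKO 0 of 6 hepatocyte markers were called against WT, where 6.17% of all genes were called lower. Of the macrophage markers 2 of 6 (Cd68 and Marco) were higher in DKO, where 3.79% of all genes were. Of the endothelial markers 1 of 6 was higher in Gclc KO (Lyve1, where 10.6% of all genes were). In Gclc KO and in DKO 0 of 6 stellate cell, 0 of 5 tested bile duct and 0 of 6 lymphocyte markers were called. Of all genes, 23% were called in Gclc KO and 9.96% in DKO. Their part in the results was not tested.

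The reductases draw NADPH from the pentose phosphate pathway and malic enzyme, and NQO1 and the aldehyde oxidases hold FAD made from riboflavin. In Gclc KO 4 of 6 genes of this supply rose, where 10.6% of all genes did, and 0 fell: G6pdx, the first enzyme of the pentose phosphate pathway (2.58, adjusted p = 0.00173), Pgd, its second NADPH-forming enzyme (1.65, adjusted p = 0.00102), malic enzyme Me1 (0.45, adjusted p = 0.0225) and riboflavin kinase Rfk (0.41, adjusted p = 0.0255). The same 4 were lower in DKO than in Gclc KO, by -2.88 for G6pdx and -1.84 for Pgd, where 4.8% of all genes were called lower. In DKO against WT 0 of 6 were called, where 9.96% of all genes were. In Nrf2 KO Me1 was lower (-0.76, adjusted p = 0.0305), where 0.139% of all genes were called. The median over the list in Gclc KO was 0.43, against 0.00 over all tested genes.

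Of 17 other carbonyl and quinone reductases tested, 2 were higher in Gclc KO, cytochrome P450 reductase Por (0.87, adjusted p = 0.0346) and Vat1 (0.57, adjusted p = 0.0214), and 4 were lower, with a median of -0.15, and 10.6% of all tested genes were called higher and 12.4% lower. The lower ones were Hsd11b1, which makes active glucocorticoid from its keto form (-1.28, adjusted p = 0.00989), cytochrome b5 reductase Cyb5r3 (-0.72, adjusted p = 0.000136), Dhrs3 (-0.47, adjusted p = 0.0351) and Dhrs4 (-0.45, adjusted p = 0.023). In DKO 3 of 17 were lower than in WT, where 6.17% of all genes were called lower: Cyb5r3 (-0.54), the quinone reductase Cryz (-0.45) and Dcxr, which reduces xylulose (-0.70). Cbr2 was below the minimum.

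Among the enzymes that share the molybdenum cofactor with the aldehyde oxidases, 9 of 11 were tested, and Aox2 and Aox4 were below the minimum. In Gclc KO 1 of the 9 rose and 2 fell, to be read against 10.6% of all tested genes called higher and 12.4% lower. Mocos, which adds the sulfur that aldehyde oxidases and xanthine dehydrogenase need for activity, rose in Gclc KO (1.13, adjusted p = 0.000114) and was below Gclc KO in DKO (-1.001, adjusted p = 0.000416), as Aox1 was. Mtarc1 (-0.44, adjusted p = 0.00681) and Gphn, which completes the cofactor (-0.43, adjusted p = 0.0452), fell in Gclc KO. Xanthine dehydrogenase Xdh was lower in DKO than in Gclc KO (-0.56, adjusted p = 0.0233). The list's median in Gclc KO was -0.18.

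Around the epoxide hydrolases, Lta4h, a further hydrolase that forms leukotriene B4, was 0.27 higher in Gclc KO (adjusted p = 0.00689), and Ephx3 and Ephx4 were below the minimum. Of 12 tested cytochromes P450 of the families that make fatty acid epoxides or hydroxylate fatty acids, 0 rose and 2 fell in Gclc KO, a share close to the 12.4% of all tested genes called lower: Cyp2j9 (-1.48, adjusted p = 0.00299) and Cyp2c29 (-0.77, adjusted p = 0.03). In DKO Cyp2j9 was again lower than in WT (-1.44, adjusted p = 0.00975), together with Cyp2j6 (-0.35, adjusted p = 0.0355), where 6.17% of all genes were called lower. The median of the 12 was -0.73 in Gclc KO and -0.52 in DKO, against 0.00 over all tested genes, while Ephx2 differed from WT by -0.00 and -0.32. The other P450s were not called against WT, and some were imprecise. In Gclc KO Cyp2c40 differed by -0.53 with a standard error of 1.99, and Cyp2c37 by -1.14 with a standard error of 1.03. Members of the Cyp2c family are alike in sequence, and their reads may be split between them.

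Over the 16 libraries the levels of the 5 transcripts that rose went together, with Pearson r between 0.84 (Cbr1 and Aox1) and 0.97 (Nqo1 and Cbr3). The points share the 4 Gclc KO livers, which stand apart for each of these genes, and no p is given. Aox3 had negative r with all 5, from -0.41 with Aox1 to -0.70 with Nqo1. The tested genes most like Nqo1 were Abcc4, an export pump (r = 0.98), Ppfibp2 (0.98) and the glutathione transferase Gstm2 (0.97). For Cbr3 they were Gm3776 (0.98), Ppfibp2 (0.98) and Gsta1 (0.98), and for Cbr1 they were Mapre2 (0.96), Ugt1a9 (0.96) and its neighbour Cbr3 (0.96). Ephx1 was most like Ugdh, which makes UDP-glucuronate (0.99), Akr1a1 (0.98) and Arpp19 (0.98), and Aox1 was most like Entpd5 (0.98), Aldh1a7 (0.97) and Gstm1 (0.97). For the other 4 the closest genes were Ttc38 for Nqo2 (0.94), Rps27a for Ptgr1 (0.90), Trip4 for Ephx2 (0.87) and Olig1 for Aox3 (0.94).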

How the data were processed

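RNA from 16 livers was made into libraries with a stranded mRNA kit. Tools named in the submitters' processing notes are STAR 2.7.9a, featureCounts (Subread 2.0.1), bcl2fastq 2.20.0, fastp, R 3.5.1 and DESeq2 1.34.0, with the build GRCm39. The authors deposited rlog values on a log2 scale for 56832 genes, 26656 of them at 0 throughout. The median of the tested genes was 8.33 to 8.38 per library. Counts cannot be had from these values, so the depth of each library is unknown.

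Genes with a mean of at least 3 (15128) were fitted with limma 3.58.1 (R 4.3.3, lmFit, contrasts, eBayes with a mean-variance trend), 1 mean per genotype, two-sided, with Benjamini-Hochberg adjustment over all tested genes and a threshold of 0.05. Intervals are 95%. Further fits added the set of livers (replicates 1 and 2 against 3 and 4) or its interaction with genotype. The test was tested on simulated data. Named are the 9 members, the targeted and sex-linked genes, the first 2 measured genes and up to 4 largest called genes of each list, and the 3 genes most like each member. Members and lists were chosen with earlier results of these data known, and TATAAA and GGGCGG were added to the motif search after the sequences had been seen. Alternatives were another or no minimum, no trend, robust variances, a replicate block, quantile normalization, median centring, an Xist covariate, array weights, each set alone, the compared groups alone, a difference of at least 1, and leaving out each liver. Sequences are from RefSeq (GRCm38.p6). Plots were made in Python 3.11.15 with matplotlib 3.10.9.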

Additional observations from a re-analysis of the deposited data

Results flagged for a closer look

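Of 36 groups of 4 livers, 9 transcripts in 4 genotypes, 2 held a value set far apart from the other 3, and chance flags about 1 in 20 groups. Cbr1 in DKO replicate 4 was at 11.30, above 11.06, 11.09 and 11.07 in the other DKO livers. Cbr3 in Gclc KO replicate 1 was at 10.27, below 11.21, 11.19 and 11.06 in the other Gclc KO livers and above every liver of the other genotypes.

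The effect of genotype in replicates 3 and 4 differed from that in replicates 1 and 2 in 5 cases by the limma test of that difference. In Gclc KO against WT the difference between sets was -0.71 for Aox1 and -1.89 for Aox3. In DKO against WT it was 0.84 for Cbr1, 1.07 for Ptgr1 and -1.07 for Aox1.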

How the results depend on the processing

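The 5 rises in Gclc KO and the 5 differences of DKO from Gclc KO kept their direction and their call in every alternative run. So did the interactions of Cbr1 and Cbr3. The fall of Aox3 in Gclc KO and the Nqo1 interaction kept their direction throughout. Each lost its call with replicates 1 and 2 alone (-0.62, adjusted p = 0.115, and -2.57, adjusted p = 0.0849). Leaving out 1 liver at a time gave 6 to 7 calls among the 9 in Gclc KO against WT, 5 in DKO against Gclc KO, 2 in DKO against Nrf2 KO, 0 in DKO against WT, 3 in the interaction, 0 to 2 in Nrf2 KO against WT and 1 to 2 between the sets. Over all tested genes the same fits, in that order, gave 2000 to 4155, 653 to 1566, 172 to 2021 and 424 to 2645. For the interaction, Nrf2 KO against WT and the sets they gave 31 to 258, 9 to 27 and 1447 to 2521. The count among the 9 whose genotype effect differed between sets was 0 to 2 in Gclc KO against WT, 0 to 3 in DKO against WT and 0 to 1 in DKO against Gclc KO. Among all tested genes these counts were 30 to 352, 16 to 1003 and 0 to 37. Same-numbered livers of different genotypes were not paired: correlations of their deviations ran from -0.07 to 0.56, and 3 of 16 libraries correlated best with their own number. A replicate block gave 2 calls in Nrf2 KO against WT in place of 1 (Ephx1, adjusted p = 0.0141) and changed no other call of the 9. In Nrf2 KO against WT the count was also 2 with array weights, with an Xist covariate and with replicates 3 and 4 alone, and 0 with replicates 1 and 2 alone and with the compared groups alone. In DKO against WT it was 2 with array weights, 1 with Xist as a covariate and 5 with replicates 3 and 4 alone. In DKO against Nrf2 KO it was 1 with the compared groups alone and with replicates 1 and 2 alone, 5 with replicates 3 and 4 alone (Nqo1, Ephx2 and Aox3 besides Ephx1 and Aox1) and 0 where a difference of at least 1 was also required. The interaction had 6 with replicates 3 and 4 alone, where 490 of all tested genes were called, and 104 in the main fit. Between sets the count was 2 with a minimum mean of 6 and with quantile normalization, and 0 with a difference of at least 1. The count that differed between sets in Gclc KO against WT was 1 with no minimum, no trend, quantile normalization or a difference of at least 1, and in DKO against WT it was 1 with no minimum.

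Some values changed sign, none of them called in the main fit or in the setting that changed the sign. Some were called in the other set of livers. With replicates 3 and 4 alone, DKO against WT was called for Aox1 (-0.76, adjusted p = 0.0032), Cbr1 (0.64, adjusted p = 0.0192) and Ptgr1 (0.84, adjusted p = 0.00977). DKO against Nrf2 KO was then called for Aox3 (-1.01, adjusted p = 0.0156) and Ephx2 (-0.43, adjusted p = 0.0289). For these the difference between sets was not called (-1.06, adjusted p = 0.193, and -0.57, adjusted p = 0.168). With replicates 1 and 2 alone, DKO against WT became 0.31 for Aox1, -0.21 for Cbr1, -0.044 for Ephx1, -0.010 for Nqo1, 0.13 for Nqo2 and -0.23 for Ptgr1. DKO against Nrf2 KO became 0.046 for Aox3, 0.14 for Ephx2, 0.18 for Nqo2 and -0.026 for Ptgr1, Nrf2 KO against WT became -0.24 for Cbr1, -0.045 for Nqo2 and -0.21 for Ptgr1, Gclc KO against WT became 0.11 for Ephx2 and its interaction 0.028. With replicates 3 and 4 alone, Cbr3 became -0.041 in DKO against Nrf2 KO and -0.16 against WT, and Ptgr1 became 0.38 in DKO against Gclc KO and 0.090 in the interaction. Quantile normalization gave Ephx2 0.065 in DKO against Nrf2 KO and 0.29 in Gclc KO against WT, Nqo2 0.00052 in DKO against Nrf2 KO and 0.050 against WT, and Ptgr1 -0.022 in Nrf2 KO against WT. Array weights gave -0.075 for Ephx1 in DKO and -0.015 for Nqo2 in Nrf2 KO against WT, and median centring -0.0015 for Nqo1 in DKO against WT. Leaving out 1 liver gave -0.18 to 0.19 for Nqo1, -0.13 to 0.17 for Cbr3 and -0.037 to 0.16 for Ephx1 in DKO against WT, -0.072 to 0.20 for Cbr1, -0.052 to 0.076 for Nqo2 and -0.033 to 0.13 for Ptgr1 in Nrf2 KO against WT, -0.062 to 0.053 for Ephx2 in Gclc KO against WT, -0.23 to 0.13 for Ptgr1 in DKO against Gclc KO, -0.27 to 0.092 for Ptgr1 in the interaction and -0.17 to 0.049 for Cbr3 between sets. The cause of these changes was not tested.

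Over all tested genes, the counts called ranged more widely across these settings: 568 to 4939 around 3481 in Gclc KO against WT, 5 to 92 around 21 in Nrf2 KO against WT, 111 to 3368 around 1506 in DKO against WT, 212 to 2187 around 1307 in DKO against Gclc KO, 17 to 2762 around 796 in DKO against Nrf2 KO and 12 to 490 around 104 in the interaction. Depth is unknown, and rlog shrinks differences of low genes.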
